A study of Mus musculus with 4 samples.

Results

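Deletion of the zinc transporter gene Zip7 (symbol Slc39a7) in the intestinal epithelium was examined here in the sorted crypt cells labelled Lgr5-Hi, by comparing 1 Zip7 KO array with 1 control array. The comparison covers every probe set of the array that the platform's annotation pairs with 1 gene symbol, which are 21789 of 35557 probe sets and stand for 19938 genes. Where a gene had several such probe sets, the one with the highest mean level over the study's 4 arrays gave its level. Of these genes 11991 were counted, namely those above a floor on at least 1 of the 2 arrays. As floor served percentile 95 of an array's 1209 chemosensory receptor genes (olfactory, vomeronasal, trace amine), which are not expected in gut and were left out of the count. It lay at 6.25 on the control array and 6.18 on the Zip7 KO array. All levels are log2 values, and a difference always means Zip7 KO minus control on that scale, so that 1 is a 2-fold difference.

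The 4 arrays of the study hold RNA of adult mouse small intestinal crypt cells that were sorted by flow cytometry. Control mice carried 1 floxed copy of Zip7 (Zip7flox/+), and Zip7 KO mice carried 2 (Zip7flox/flox). Both genotypes had the drivers Villin-CreERT2 and Lgr5-EGFP-ires-CreERT2 and received tamoxifen for 2 days, so the controls too were exposed to active Cre and to the loss of 1 copy. CreERT2 under the villin promoter acts throughout the intestinal epithelium, and the Lgr5 allele supplies EGFP and a further CreERT2. Each genotype gave 1 array labelled Lgr5-Hi and 1 labelled Lgr5-Med. How many animals stand behind an array, and whether the fractions of a genotype share mice, is not in the labels. With 1 array a group no difference could be tested, and every value below describes these arrays. The levels of Xist and of Y-linked genes, given below, differed with genotype, so that genotype and sex of the mice cannot be told apart.

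ZIP7 sits in membranes of the early secretory pathway and releases stored zinc into the cytosol. Proteins bound for secretion fold in the endoplasmic reticulum (ER), and when unfolded protein builds up there the sensors ATF6, IRE1 (Ern1, and Ern2 in gut epithelium) and PERK (Eif2ak3) start the unfolded protein response. ATF6 and XBP1 raise chaperones, isomerases and the machinery of ER-associated degradation, while PERK acts through ATF4 and CHOP (Ddit3) on amino acid supply, redox balance and cell death. Interferon signalling is a separate programme, in which STAT and IRF factors raise antiviral genes, MHC genes and the immunoproteasome, and in the gut it is fed in part by intraepithelial lymphocytes.

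Short stretches of promoter sequence are given first because they hold motifs that the factors named above are known to bind. The windows are RefSeq promoters of build GRCm38.p6, from 250 bases before to 50 after each annotated start, and 9581 of the 11991 counted genes matched one. The 5 motifs were searched on both strands, and positions are counted from the annotated start, whose own base is 0. The ER stress element ERSE was searched as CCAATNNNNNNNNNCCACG, ERSE-II as ATTGGNCCACG and the core of the unfolded protein response element (UPRE core) as TGACGTGG. The C/EBP-ATF response element CARE was searched as TGATGNAA and the interferon-stimulated response element ISRE as GAAANNGAAA. The letters CCACG are common to ERSE and ERSE-II, and in 3 windows of counted genes matches of different motifs overlapped. A match describes letters in a window, and is neither a shown binding site nor a cause.

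For 4 genes the whole stretch of 250 bases before the start is printed 5′ to 3′ on the gene's strand, with every motif match in capitals. These genes carry the largest or best known difference of their group. Derl3 lies on the plus strand (chr10:75893148-75893397) and has an ERSE on the opposite strand at -156. Hspa5, also on the plus strand (chr2:34771840-34772089), has one in the direction of the gene at -65. Slc7a11, on the minus strand (chr3:50443614-50443863), has CARE matches facing each other at -66 and -47, and Ifit1, on the plus strand (chr19:34640639-34640888), has ISRE matches on the opposite strand at -104 and -85.
Derl3: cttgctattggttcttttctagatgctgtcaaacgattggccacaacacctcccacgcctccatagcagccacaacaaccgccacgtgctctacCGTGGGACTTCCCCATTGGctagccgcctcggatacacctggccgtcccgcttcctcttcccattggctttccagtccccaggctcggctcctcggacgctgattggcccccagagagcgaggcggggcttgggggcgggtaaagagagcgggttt
Hspa5: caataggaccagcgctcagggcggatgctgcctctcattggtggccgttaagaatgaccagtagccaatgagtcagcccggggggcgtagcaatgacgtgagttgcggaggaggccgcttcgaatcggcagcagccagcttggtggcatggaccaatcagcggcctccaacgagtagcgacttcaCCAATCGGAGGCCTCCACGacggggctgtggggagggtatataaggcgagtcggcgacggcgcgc
Slc7a11: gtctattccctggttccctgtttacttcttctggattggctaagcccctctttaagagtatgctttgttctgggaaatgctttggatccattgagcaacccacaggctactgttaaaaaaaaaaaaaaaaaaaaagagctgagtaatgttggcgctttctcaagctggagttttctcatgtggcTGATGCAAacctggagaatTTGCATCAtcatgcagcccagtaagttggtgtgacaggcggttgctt
Ifit1: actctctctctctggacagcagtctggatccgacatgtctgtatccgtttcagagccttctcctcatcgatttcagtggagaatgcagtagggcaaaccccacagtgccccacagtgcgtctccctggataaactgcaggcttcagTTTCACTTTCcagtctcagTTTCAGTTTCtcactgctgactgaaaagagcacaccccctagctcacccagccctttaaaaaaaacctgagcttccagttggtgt

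The other ERSE matches of genes at least 1.5-fold higher are printed in the direction of the motif, with the motif in capitals and 5 bases on each side. Their ends are shared because the search fixed those letters, while the spacer and the flanking letters were free to differ. The position is that of the first base of the match on the gene's strand.
Creld2 ERSE at -126, chr15:88819515-88819543, minus strand: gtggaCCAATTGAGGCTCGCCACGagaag
Dnajc3 ERSE at -105, chr14:118937822-118937850, plus strand: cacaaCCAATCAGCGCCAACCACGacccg
Syvn1 ERSE at -44, chr19:6046527-6046555, plus strand: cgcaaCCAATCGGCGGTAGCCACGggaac
Ero1b ERSE at -201, chr13:12565677-12565705, minus strand: ggcggCCAATGAGGCGGGACCACGaggcc
Pdia6 ERSE at -98, chr12:17266486-17266514, plus strand: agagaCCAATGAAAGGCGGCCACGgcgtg
Hsp90b1 ERSE at -212, chr10:86705633-86705661, minus strand: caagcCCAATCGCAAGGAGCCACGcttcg
Hsp90b1 ERSE at -107, chr10:86705528-86705556, plus strand: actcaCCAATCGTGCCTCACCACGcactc
Zfp57 ERSE at -33, chr17:37002487-37002515, minus strand: gaagcCCAATGCCTGAATGCCACGccttc

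The CARE matches below belong to the stress response genes at least 2-fold higher and to Nupr1, and the ERSE-II match is that of Herpud1, which holds both kinds. In Trib3 the match lies just inside the transcribed part.
Chac1 CARE at -193, chr2:119351044-119351061, minus strand: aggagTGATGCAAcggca
Trib3 CARE at 14, chr2:152344034-152344051, plus strand: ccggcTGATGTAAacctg
Nupr1 CARE at -110, chr7:126625568-126625585, plus strand: ctgtcTGATGCAAtctgg
Herpud1 CARE at -112, chr8:94386312-94386329, minus strand: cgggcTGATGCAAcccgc
Herpud1 ERSE-II at -52, chr8:94386372-94386392, plus strand: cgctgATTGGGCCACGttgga

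Genes with an ERSE stood high in the Zip7 KO array. The motif was in 0.137% of the 27025 genes of the promoter table and in 17 counted genes, of which 14 were higher and 3 lower. At least 1.5-fold higher were 9 of the 17 (52.9%), against 1.12% of all counted genes with a window, and the median difference was 0.61 against 0.03. Of the 9, 8 were above the floor on both arrays, and with the other gene, Zfp57, at its bound the median was 0.44. The 9, listed here because they hold the motif, were Derl3, Creld2, Dnajc3, Syvn1, Ero1b, Pdia6, Hsp90b1, Zfp57 and Hspa5, and Hspa5 was the smallest of the 8 at 0.61. The zinc finger gene Zfp57, a factor of genomic imprinting, was the 1 of them outside the ER lists. Its control value of 5.86 lay below the floor, so that its difference is at least 0.30, and the 0.68 between its values is not a measured size. Calr, Canx and the glycosylation enzyme gene Alg12 also held the motif and differed by 0.35, 0.13 and 0.44. Creld2 and Alg12 face away from each other across the same ERSE (chr15:88819515-88819543), Creld2 differing by 1.61. The 3 lower genes were Spats2l, Adcy3 and Acacb, between -0.21 and -0.28. ERSE-II was in 9 counted genes with a median of 0.36, led by Herpud1 at 1.01 and Dnajb11, a cofactor of BiP, at 0.61. The UPRE core, in 112 counted genes, had a median of 0.06.

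CARE and ISRE are short and common, and most genes with them did not stand apart. CARE was in 4.51% of all promoters and in 246 counted genes, whose median was 0.06. Among genes at least 2-fold higher with a window, 5 of 27 held it (18.5%), namely Slc7a11, Chac1, Trib3, Herpud1 and Bcl2l15, against 2.57% of counted genes. These counts use the values as deposited, and the bounds of Slc7a11 here and of Ddx60 among the ISRE genes fall short of 2-fold. ISRE was in 3.99% of all promoters and in 329 counted genes with a median of 0.01. It was in 9 of the 20 genes at least 2-fold lower that had a window (45%), against 3.43% of counted genes, and in 1 of the 27 higher ones, Adh6a. In Oas1a and Irgm1 pairs of ISRE matches overlap one another.

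**Figure D1:**
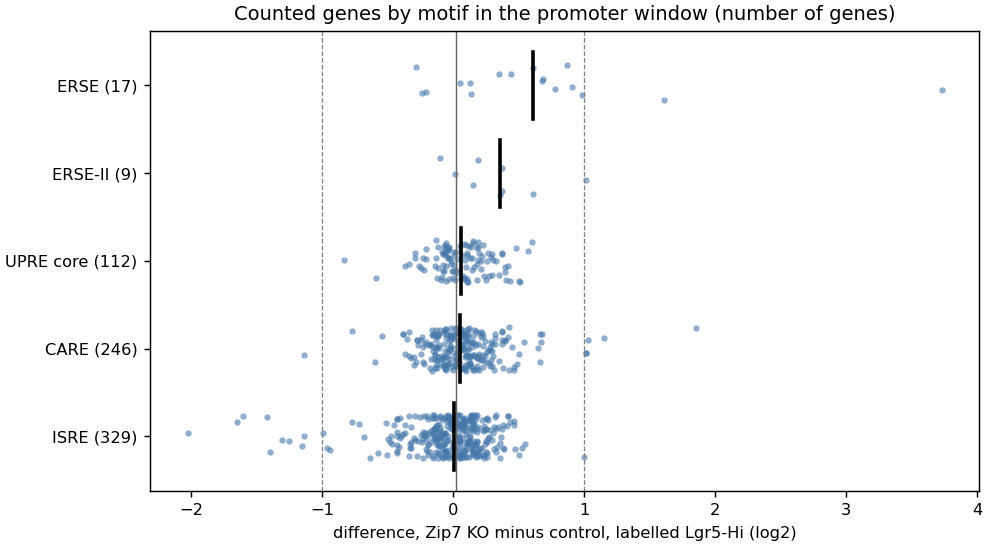
Differences (Zip7 KO minus control, labelled Lgr5-Hi, log2) of counted genes that hold each motif in the promoter window; each point is 1 gene, thick black bars are the medians, the thin solid line is the median of all counted genes with a window and dashed lines mark 2-fold. The 17 genes with ERSE have a median of 0.61 (0.44 with Zfp57 at its bound), while those with CARE or ISRE centre near 0 with tails to the right and left.

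Over all counted genes the 2 arrays lay close together. The median difference was 0.02, 98% of genes were within 1.5-fold of each other, and 55% of genes were higher by any size and 45% lower. At least 2-fold higher were 30 genes (0.25% of those counted) and at least 2-fold lower 28 (0.234%). At 1.5-fold the counts were 130 (1.08%) and 111 (0.926%). These counts take the deposited values, also where 1 array is below its floor and only a bound is measured, which holds for 9 of the 30 and 9 of the 28. By their bounds 26 higher and 25 lower genes reach 2-fold, and Slc7a11, Rbm12b2, Srsy and Nxf7 on one side and Dppa5a, Herc6 and Ddx60 on the other are not shown to. At 1.5-fold 123 and 103 do so. Just outside the 2-fold limit lay Dnajc3 at 0.99, Anxa13 and Cox6a2 at 0.96, and, on the other side, Irgm1 at -0.99, Tifa and Tap1 at -0.98. Just inside it lay Adh6a, with levels of 9.94 and 10.94, and, of the lower genes above the floor on both arrays, Nkg7 at -1.07.

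The identity of the cells was checked on fixed markers. Epithelial markers were high on both arrays, from 11.6 for Epcam upward, and B cell markers were below the floor on both. Of 5 myeloid markers 3 were above the floor in control and 2 in Zip7 KO, with Cd68 at 8.79 and 9.02. Of 5 stromal and endothelial markers Col1a1 (7.19 and 7.01) and Col3a1 (7.01 and 6.75) were above it on both arrays. All measured Paneth, goblet, enteroendocrine, tuft, enterocyte and stem cell markers were above the floor on both arrays. In control the mean levels of the first 4 sets were 11.6, 12.6, 9.69 and 8.29, against 10.6, 11.5, 7.49 and 7.51 under the label Lgr5-Med. Enterocyte markers averaged 11.9 under both labels, and stem cell markers 9.76 against 11.3. Lgr5, which names the sort, was at 7.79 in control and 7.93 in Zip7 KO, against 10.97 and 11.24 on the arrays labelled Lgr5-Med, so the label goes against the transcript and is used here only as a name. Slc39a7 itself was at 8.92 and 9.02, and where its probes lie relative to the floxed part is not known here. The control array had Xist at 11.6 and the Y-linked genes Kdm5d, Uty and Eif2s3y below the floor, and the Zip7 KO array had Xist below the floor and these Y-linked genes between 7.71 and 8.12. Genotype and sex of the mice therefore cannot be told apart in any value given here, including the motif results and counts above. The Y-linked gene Srsy has 19 probe sets, all below the floor in control and 12 of them above it in Zip7 KO, and its difference is at least 0.81.

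**Figure D2:**
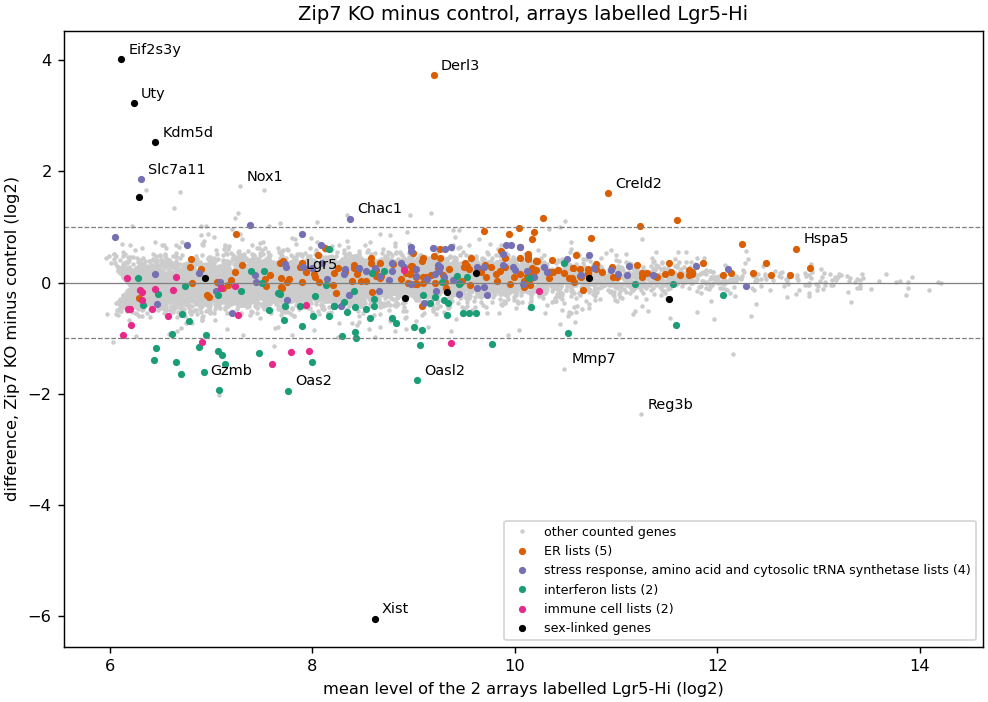
Difference of each counted gene against its mean level on the 2 arrays labelled Lgr5-Hi (both log2), coloured by gene list; dashed lines mark 2-fold. Derl3 (3.73) stands far above all other genes that are not sex-linked, ER list members lie mostly above 0 at all levels, and most interferon and immune cell genes lie below 0.

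The ER lists held 181 counted genes, of which 156 were higher and 25 lower, with a median of 0.19 and 5 genes at least 2-fold higher. Over all counted genes 55% were higher, 1.08% by at least 1.5-fold and 0.25% by at least 2-fold. All lists, here and below, were chosen with earlier results of these data known. A list's excess over all counted genes is therefore a description and not independent support. The ER chaperones led the ER lists, with 18 of 20 counted genes higher, 8 at least 1.5-fold, and a median of 0.37. Creld2, an ER stress-induced calcium-binding protein, went from 10.12 in control to 11.73 in Zip7 KO (3.04-fold), and Sdf2l1, a partner of BiP, from 9.70 to 10.85 (2.23-fold). Under the label Lgr5-Med their differences were 0.51 and 0.59. Dnajc3, a co-chaperone that restrains PERK, differed by 0.99, and Manf, a secreted stress factor kept in the ER, by 0.92. Hsp90b1 (GRP94) went from 11.90 to 12.59, and Hspa5 (BiP), the Hsp70 of the ER, from 12.48 to 13.09. Fkbp2 and Creld1 were the 2 lower ones at -0.02 and -0.07.

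Protein disulfide isomerases and ER oxidases form and shuffle disulfide bonds. Of their 24 counted genes 15 were higher (62.5%, against 55% of all counted genes), with a median of 0.16. Pdia4 went from 11.04 to 12.16 (2.17-fold) on the probe set that gave its level, and its second probe set, below the floor in control, differed by at least 0.53. The oxidases Ero1b and Ero1a, which pass electrons from the isomerases to oxygen, differed by 0.87 and 0.65, Pdia6 by 0.78, Erp44 by 0.44, Pdia3 by 0.36, Agr2 by 0.27 and the founding member P4hb by 0.18. Lower values were those of the sulfhydryl oxidase Qsox1 at -0.42, of Pdia2, with its Zip7 KO value below the floor, and of the thioredoxin family members Txndc16, Txndc12 and Txndc5, from -0.22 to -0.13. The 4 differences of at least 1.5-fold in this list were all upward.

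ER-associated degradation pulls misfolded proteins back into the cytosol for the proteasome. Derl3, a Derlin of the retrotranslocation channel that is low in unstressed cells, was at 7.34 in control and 11.06 in Zip7 KO, which is 13.2-fold, and at 6.88 and 8.56 under the label Lgr5-Med. Its relatives Derl1 and Derl2 differed by 0.35 and 0.26. Herpud1, a scaffold of the ligase complex, went from 10.73 to 11.74, the ligase Syvn1 (HRD1) from 9.74 to 10.64 and its partner Sel1l from 9.50 to 10.38. In all 29 of 31 counted genes were higher, with a median of 0.19. The exceptions, Herpud2 and Fam8a1, were at -0.02 and -0.03.

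The lists upstream and downstream of folding had many small differences and none of 1.5-fold. The translocon, signal peptidase and N-glycosylation list, which covers entry into the ER and the first sugars, had 47 of 53 counted genes higher with a median of 0.22, led by Alg3 (0.52), Sec61a2 (0.50), Gfpt1 (0.46) and Dpagt1 (0.45), with Alg1 at -0.19. ER-Golgi vesicle transport likewise had 47 of 53 higher with a median of 0.17, led by Stx5a, Tmed5, Uso1 and Preb between 0.45 and 0.57, with Copz2 at -0.26. Under the label Lgr5-Med where 44.1% of all counted genes were higher, the medians of these lists were -0.00 and -0.03, with 26 and 23 of 53 genes higher. Of the 181 genes of the ER lists 152 had a higher difference under the label Lgr5-Hi than under Lgr5-Med, a gap that was not tested. The same share over all counted genes was not computed. Their medians, 0.02 for Lgr5-Hi and -0.03 for Lgr5-Med, were offset in the same direction.

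Among the sensors and transcription factors of the response 17 of 25 counted genes were higher (68%, against 55% of all counted genes), with a median of 0.11. Atf6 went from 9.01 to 9.62, Ern1 from 9.14 to 9.36 and Eif2ak3 from 8.61 to 8.73, while Ern2, the IRE1 form of secretory epithelium, was at 9.30 and 9.15. Xbp1, which IRE1 activates by splicing, differed by 0.13, a value that does not separate its spliced forms. Atf4, controlled mainly at translation, differed by 0.28, Ddit3 by 0.56 and Atf5, a further ATF4-related factor, by 0.87. The other kinases of eIF2α were at 0.36 for Eif2ak1, 0.01 for Eif2ak4 and -0.43 for the interferon-induced Eif2ak2 (PKR). Under the label Lgr5-Med 4 of 25 were higher, against 44.1% of all genes counted there. The median there was -0.18, with Atf6 at -0.18 and Ddit3 at 0.30.

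Effectors of CHOP and the integrated stress response were split between a group that stood higher and members near 0. Of 18 counted genes 12 were higher (66.7%, against 55% of all counted genes), with a median of 0.23. Chac1, which breaks down glutathione, went from 7.80 to 8.95 (2.22-fold), and Trib3, a pseudokinase that dampens ATF4 signalling, from 6.88 to 7.90 (2.04-fold). Nupr1, a stress-induced chromatin protein, differed by 0.68, the mTORC1 inhibitor Sesn2 by 0.67 and the growth arrest gene Gadd45a by 0.64. The death receptor Tnfrsf10b differed by 0.33. Among the BCL2 family the BH3-only genes Pmaip1, Bcl2l11 and Bbc3 were at 0.27, -0.03 and -0.16, while Bcl2l15, a little-studied member, went from 7.07 to 8.08. Under the label Lgr5-Med Bcl2l15 was below the floor in Zip7 KO, and its difference there is known only as -0.12 or more in size. Slfn4, an interferon-induced gene placed in this list, was at -0.56.

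Amino acid transport and serine synthesis, which ATF4 raises to supply protein and glutathione synthesis, had 23 of 26 counted genes higher with a median of 0.27. Over all counted genes 55% were higher. The cystine importer Slc7a11 was at 5.38, below the floor, in control and at 7.24 in Zip7 KO, so the difference is at least 0.99. On both arrays labelled Lgr5-Med it was below the floor. Aldh1l2 and Mthfd2, of mitochondrial folate metabolism, differed by at least 0.21 and by 0.62, the transaminase Gpt2 and the cysteine-forming Cth by 0.67 each, and the glycine transporter Slc6a9 by 0.63. Asns, a classic ATF4 target, differed by 0.16. Phgdh, the first enzyme of serine synthesis, was at -0.32 and the lysosomal carrier Slc36a1 at -0.37. Cytosolic aminoacyl-tRNA synthetases, which charge tRNAs for translation, had 16 of 18 higher with a median of 0.24, Sars leading at 0.51 and Iars at 0.42. The mitochondrial synthetases, which serve the separate mitochondrial translation, had 8 of 16 higher and a median of 0.00, whose sign turned when the difference was centred, quantile normalised or freed of its trend on level.

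**Figure D3:**
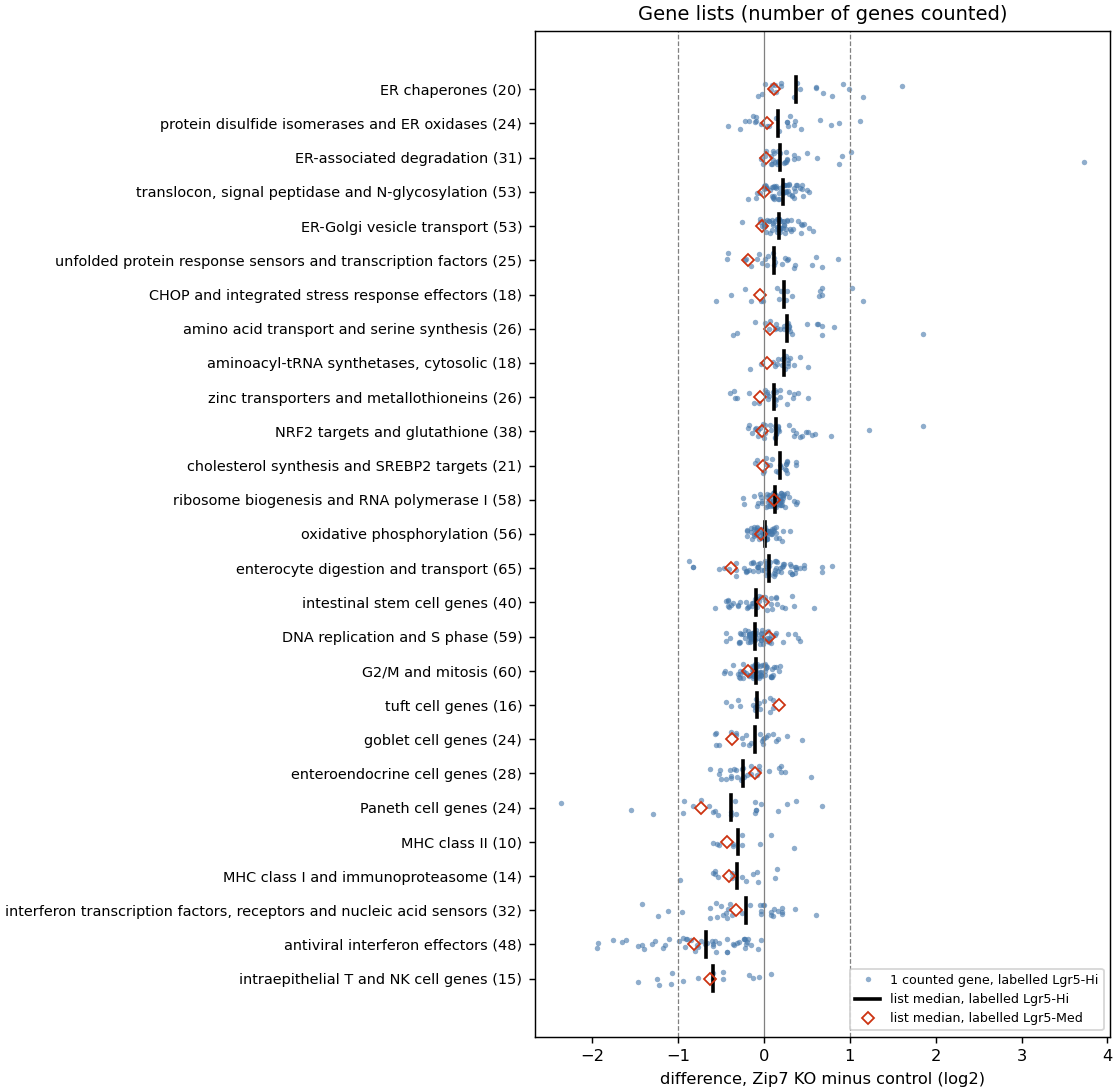
Differences of the counted genes of each list (Zip7 KO minus control, log2); points are genes and bars medians for the arrays labelled Lgr5-Hi, open diamonds are medians for those labelled Lgr5-Med, and dashed lines mark 2-fold. The ER and stress lists have medians from 0.11 to 0.37 under the label Lgr5-Hi, above their medians under Lgr5-Med, and the antiviral interferon list has -0.68.

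Zinc genes were described by role because ZIP7 is a zinc transporter, and not every counted member is named. Of 26 counted zinc transporter and metallothionein genes 19 were higher (73.1%, against 55% of all counted genes) and 0 reached 1.5-fold, with a median of 0.11. The largest upward differences were in the importer Slc39a10 (0.51) and in the exporters of the secretory pathway Slc30a7 (0.40) and Slc30a5 (0.35), which load zinc into ER and Golgi, and their partner Slc30a6 was at 0.13. The zinc sensor Mtf1 differed by 0.34. Its known targets Mt2 and Mt1, which store zinc, were at 0.27 and 0.13, and a further one, the cell surface exporter Slc30a1, at -0.40, the largest downward. Mt3 was at -0.34. Slc39a4, the importer of dietary zinc, was at 0.14, and Slc39a13, a relative of Slc39a7 in the secretory pathway, at 0.01.

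Redox genes held single large values beside small ones. Nox1, the superoxide-producing oxidase of gut epithelium, went from 6.42 in control to 8.15 in Zip7 KO (3.32-fold), and from 7.01 to 8.99 under the label Lgr5-Med (3.93-fold). Its partners Noxo1 and Noxa1 differed by 0.19 and 0.24 and Cyba by -0.26, while Duox2 and its maturation factor Duoxa2, a second oxidase system of the epithelium, were at -0.63 and -0.48. Among NRF2 targets and glutathione genes 29 of 38 counted genes were higher (76.3%, against 55% of all counted genes), with a median of 0.14. Gsta4, which detoxifies lipid aldehydes, went from 8.35 to 9.57, the aldo-keto reductase Akr1b8 differed by 0.78 and the epoxide hydrolase Ephx1 by 0.59. Hmox1, a usual marker of NRF2 activity, was at -0.18.

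Of the 30 genes at least 2-fold higher 16 were in no list. Enzymes of small-molecule metabolism were 6 of them. These were the acetyltransferase family gene Nat8f5 (6.69 to 8.36), the cytochrome P450 Cyp2c68 (at least 1.06, being under the floor in control), the aldo-keto reductase Akr1c19 (8.54 to 9.80), the sulfotransferase Sult6b2 (6.65 to 7.89), the peroxisomal oxidase Acox2 (6.66 to 7.81) and the alcohol dehydrogenase Adh6a (9.94 to 10.94). They were chosen by size and not as a set, several belong to families of similar genes whose probes may not tell them apart, and under the label Lgr5-Med the differences of 5 of them lay between -0.24 and 0.33, Cyp2c68 being below the floor on both arrays there. The stress-inducible Niban1 was higher by at least 1.26, and Nucb2, a calcium-binding protein of the secretory pathway, by 1.20. The semaphorin Sema7a (1.08) and the transcriptional repressor Bcl6 (1.02) differed by 1.31 and 0.97 under the label Lgr5-Med. The remaining ones were Bcl2l15, Rbm12b2, Clec2e, Nxf7, Gm9926 and Gm10768.

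**Figure D4:**
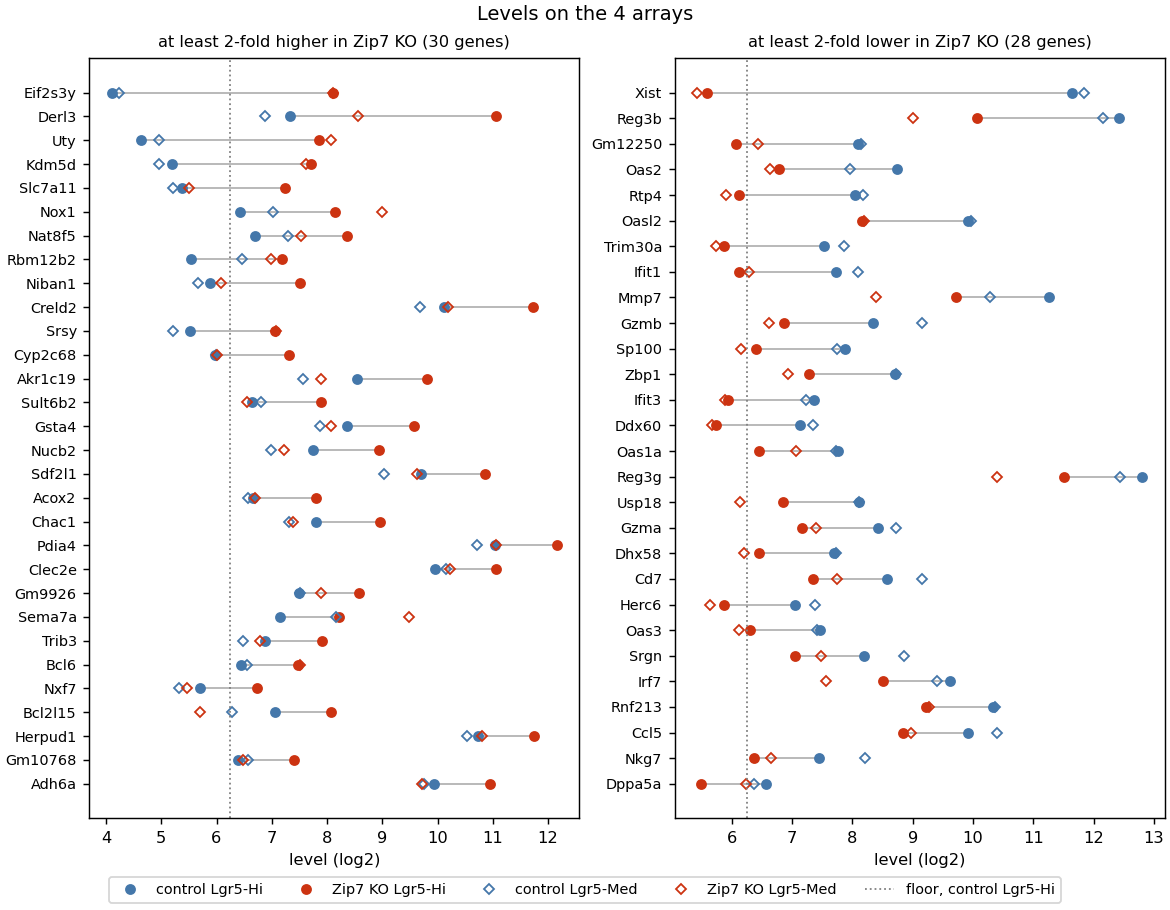
Levels (log2) on all 4 arrays of the genes past 2-fold in Zip7 KO, 30 upward and 28 downward, under the label Lgr5-Hi; filled circles are the arrays labelled Lgr5-Hi, joined by a line, open diamonds those labelled Lgr5-Med, blue is control, red is Zip7 KO and the dotted line is the floor of the control array. The genes were chosen by the gap between the circles. Derl3, Creld2 and Slc7a11 show a wide gap between the circles and a narrower one between the diamonds, while for most of the lower genes both gaps are wide.

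Antiviral interferon genes formed the main body of the lower side. Of the 28 genes at least 2-fold lower 16 were in the interferon lists, 5 in the immune cell lists and 3 among Paneth cell genes. Of the 11991 counted genes the interferon lists held 80, the immune cell lists 15 and 9, and the Paneth cell list 24. The antiviral effectors had 48 counted genes of 61 with a probe set. All 48 were lower (against 45% of all counted genes), with a median of -0.68. Lower by at least 1.5-fold were 28 and by at least 2-fold 13 (11 by their bounds), against 0.926% and 0.234% of all counted genes. Of the 48, 7 were below the floor on 1 array, and a gene counted only through the control array can only come out lower. With these 7 at their bounds the median was again -0.68, and with no floor it was -0.57. The RNA-sensing synthetases Oas2 and Oasl2 went from 8.73 to 6.79 and from 9.91 to 8.15, and Oas1a and Oas3 differed by -1.31 and -1.15. Ifit1, Ifit3, Rtp4 and Trim30a were below the floor in Zip7 KO, so their differences are at least as large as -1.55, -1.18, -1.87 and -1.35. Usp18, which takes the ubiquitin-like ISG15 off proteins, went from 8.11 to 6.84, and the nuclear body gene Sp100 from 7.87 to 6.40. Gm12250, an interferon-inducible GTPase outside the lists, differed by -1.91 or more in size (at least 3.75-fold lower), with its Zip7 KO value below the floor. Ifitm2, a membrane restriction factor, was nearest to 0 at -0.03.

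Among regulators of the same programme 21 of 32 counted genes were lower (against 45% of all counted genes), with a median of -0.21. Zbp1, a sensor of nucleic acids, went from 8.71 to 7.29, the RNA helicase Dhx58 from 7.69 to 6.45 and Irf7, the master factor of type I interferon, from 9.62 to 8.50, with Stat2 at -0.96. Isg20 and the interferon gamma receptor Ifngr1 were higher by 0.60 and 0.36. In antigen presentation 12 of 14 counted MHC class I and immunoproteasome genes were lower (median -0.31), led by the peptide transporter Tap1 at -0.98, H2-Q4 at -0.60 and the immunoproteasome subunits Psmb9 and Psmb8 at -0.57 each. B2m, the shared light chain, was at -0.12 and Tapbpl at 0.16. For MHC class II 8 of 10 were lower (median -0.31), with the regulator Ciita at -0.60 and H2-Eb1, H2-Ab1 and H2-Aa between -0.55 and -0.36, while Rfxank was at 0.35. Under the label Lgr5-Med, where 55.8% of all counted genes were lower by any size and 2.1% by at least 1.5-fold, the antiviral median was -0.82, and 26 of the 28 genes at least 2-fold lower were so there as well, where 0.621% of all counted genes were.

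Genes of intraepithelial T and NK cells were lower as well. Of 40 with a probe set 15 were counted, 14 of them lower (against 45% of all counted genes), with a median of -0.59. This median rests on the floor, being -0.19 with no floor and -1.08 with the floor at percentile 99. Of the 15 genes 4, among them Cd3g and Ptprc, were counted only through the control array, and 1, Cd247, only through the Zip7 KO array, and with these 5 at their bounds the median was -0.42. Of the 6 fixed markers 6 were above the floor in control and 4 in Zip7 KO. The mean level of these 6 markers was 7.21 in control and 6.35 in Zip7 KO. Cd3e, of the T cell receptor complex, went from 7.57 to 6.98, the granule enzyme Gzmb from 8.33 to 6.86, Gzma from 8.42 to 7.17, the T cell antigen Cd7 from 8.58 to 7.35 and the chemokine Ccl5 from 9.92 to 8.83. Ptprc, the pan-leukocyte CD45, was at 6.44 in control and below the floor in Zip7 KO, and Srgn, the proteoglycan of such granules, differed by -1.14. In sorted bulk samples fewer cells of a type and less RNA per cell cannot be told apart. The part of these cells in the interferon differences was not tested. Without the sex-linked genes and the interferon and immune cell lists the counts past 2-fold were 26 higher and 6 lower, the lower ones being Reg3b, Reg3g, Mmp7, Gm12250, Srgn and Dppa5a.

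Most counted genes of the secretory cell types were lower, against 45% of all counted genes. Paneth cells guard the stem cells at the crypt base with antimicrobial proteins, and 20 of their 24 counted genes were lower, with a median of -0.38. The lectin Reg3b went from 12.42 to 10.06 (5.15-fold lower), Reg3g from 12.81 to 11.52, the defensin-processing protease Mmp7 from 11.27 to 9.72 and the phospholipase Pla2g2a from 10.40 to 9.46. Reg3b and Reg3g were also in the list of inflammatory and antimicrobial genes. In that list 16 of 31 counted genes were lower, with a median of -0.03. Lysozyme (Lyz1), at 13.9 and 13.8, differed by -0.11. The stress-responsive Nupr1 and Bhlha15, a factor of secretory cells, were on the other side at 0.68 and 0.37. Goblet cell genes had 17 of 24 lower with a median of -0.10, Muc2 at -0.24, Atoh1 at -0.56 and Clca1 at 0.45. Enteroendocrine genes had 22 of 28 lower with a median of -0.25, Insm1 at -0.63, Chga at -0.53 and the hormone gene Sst at 0.55. Under the label Lgr5-Med the Paneth, goblet and enteroendocrine medians were -0.74, -0.38 and -0.10.

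Stem cell and cell cycle genes had small differences and 0 genes at 1.5-fold. Over all counted genes 45% were lower. The intestinal stem cell list had 26 of 40 counted genes lower and a median of -0.09, with Olfm4 at -0.20, Ascl2 at -0.14, Smoc2 at -0.09 and Lgr5 at 0.14. DNA replication and S phase had 43 of 59 lower with a median of -0.10, led by the polymerase subunit Pold1 (-0.45) and Tk1 (-0.44), against E2f2 at 0.42 and Pcna at 0.08. G2/M and mitosis had 43 of 60 lower with a median of -0.09, and Mki67 was at -0.17. Tuft cell genes had 11 of 16 lower with a median of -0.08, and their marker Dclk1 was at -0.05. The enterocyte list had 40 of 65 higher (61.5%, against 55% of all counted genes) with a median of 0.06. The sign of this median turned after quantile normalisation and removal of the trend on level. In this list Fabp1 was at -0.21, the chloride exchanger Slc26a3 at 0.68 and the vitamin B12 receptor Cubn at -0.87.

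Beside the arrays labelled Lgr5-Med, which share no array with these, the higher and the lower genes are set side by side. Of the 30 higher genes 26 had the same sign there and 7 were at least 2-fold higher as well (0.0653% of all genes counted there), namely Derl3, Nox1, Sema7a, Eif2s3y, Uty, Kdm5d and Srsy, and 26 had the larger difference under the label Lgr5-Hi. As above, these counts take the deposited values, and several of the higher genes, such as Slc7a11 and Cyp2c68, were below the floor on both arrays labelled Lgr5-Med. All 28 lower genes had the same sign and 6 had the larger difference under the label Lgr5-Hi. Chac1 is one of the former, with 7.80 and 8.95 under one label and 7.31 and 7.39 under the other. Irf7 is one of the genes lower under both labels, with 9.62 and 8.50 against 9.40 and 7.56. All these genes were chosen by their difference under the label Lgr5-Hi, a choice that by itself favours a larger difference there. The share of all counted genes with the same sign under both labels was not computed. The Y-linked genes above and Xist, one of the 28, differ with the sex of the mice, which went with genotype under both labels. The difference between the labels was not tested, and whether the fractions share mice is not known.

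**Figure D5:**
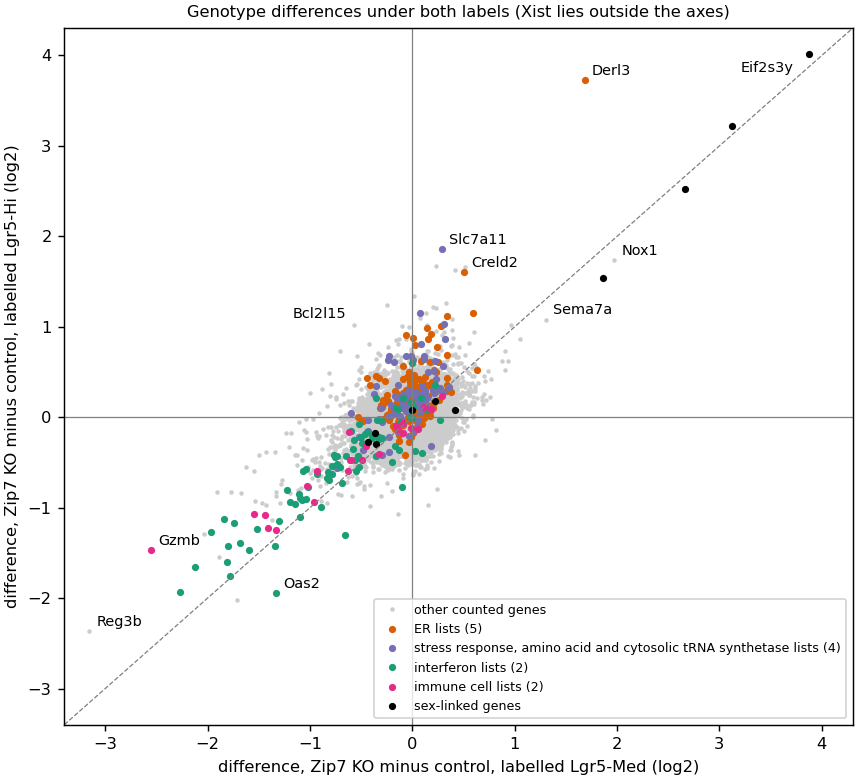
Difference of each counted gene under the label Lgr5-Hi (vertical axis) against its difference under the label Lgr5-Med (horizontal axis), both Zip7 KO minus control on the log2 scale and coloured by gene list; the dashed line marks equal differences. Most ER and stress genes lie above the dashed line, and most interferon genes lie on the lower left. The share of all counted genes above that line was not computed.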

How the data were processed

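Gene expression was measured on 4 whole-transcript microarrays, 1 for each genotype and sorted fraction. The deposited values are log2 expression values per probe set, which the authors made with RMA, per the submitters' processing notes; that method corrects background, normalises across arrays and summarises probes. Software and version of RMA were not given in the sources used here, and the log base was read from the range of the values. No further normalisation was applied. Probe sets were named from the platform's annotation: 21789 carried 1 symbol and were used, 1621 carried several and 12147 were not listed.

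Differences, list counts and medians were computed in Python 3.11.15 with pandas 2.3.3 and statsmodels 0.14.6, and the scripts were tested on simulated data. A gene below the floor on 1 array has only a bound, its measured level against that array's floor; counts take the deposited values, with counts and medians by bounds, chosen after seeing the data, beside some of them. With 1 array a group there was no test, so precision is limited by the number of arrays. Named genes are all those at least 2-fold different, in each list the 4 largest in the direction of its median and the 2 farthest the other way, a set of markers, and members of families described by role. Tnfrsf10b, Asns, the genes named for a motif and those beside the 2-fold limit were added after their values were seen. The members and all 43 lists were chosen with earlier results of these data known. Alternatives changed the scaling, the probe set rule, the floor, the fold and the genes counted.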

Additional observations from a re-analysis of the deposited data

Results flagged for a closer look

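Several values had opposite signs under the 2 labels, each with 1 array a group, so that none of these differences between the labels was tested. The median of the unfolded protein response sensors and transcription factors was 0.114 for Lgr5-Hi and -0.182 for Lgr5-Med. In the same order it was 0.0566 and -0.385 for the enterocyte genes, -0.104 and 0.0607 for DNA replication and S phase, and -0.0844 and 0.171 for the tuft cell genes. Among genes past 2-fold upward for Lgr5-Hi, the sulfotransferase Sult6b2 was at 1.24 and -0.24, the BCL2 family member Bcl2l15 at 1.01 and -0.57, and the predicted gene Gm10768 at 1.01 and -0.10. The Zip7 KO value of Bcl2l15 under the label Lgr5-Med lay below the floor, so that -0.57 is not a measured size and the bound is -0.12.

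Probe sets outside the comparison also differed between the arrays. Of 1121 probe sets above the floor that carry several gene symbols, 61 were past 2-fold upward in Zip7 KO and 13 downward, and for 43 of the 61 every matched symbol lies on the Y chromosome. Of 5432 probe sets above the floor that the annotation does not list, 211 were past 2-fold upward and 43 downward, and these carry no gene name here.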

How the results depend on the processing

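The counts of genes at least 2-fold different stayed between 21 and 30 higher and between 19 and 33 lower under the other scalings, probe set rule and floors, and without the sex-linked genes. At 1.5-fold they were 130 and 111, and without the sex-linked genes and the interferon and immune cell lists 26 and 6. Past 2-fold under all 4 alternatives of scaling and probe set were 25 of the 30 higher and 27 of the 28 lower genes, the others being Adh6a, Bcl2l15, Gm10768, Herpud1, Nxf7 and Dppa5a. Of 301 list medians recomputed 295 moved by less than 0.1, which is nearly as large as several of the medians themselves. At the lowest over the alternatives, unfolded protein response sensors and factors went from 0.11 to 0.04 and zinc genes from 0.11 to 0.05. NRF2 and glutathione genes went from 0.14 to 0.07, ER-Golgi transport from 0.17 to 0.09 and ER chaperones from 0.37 to 0.30. With no floor the antiviral median was -0.57, that of T and NK cell genes -0.19 and that of stromal genes -0.0614. The T and NK cell median was -0.83 for genes above the floor on both arrays and -1.08 with the floor at percentile 99, and that of sex-linked genes -0.0476 above the floor on both. The choice of floor changes which genes are counted. Signs turned under at least 1 alternative for 9 lists whose medians lay near 0, among them Wnt targets, oxidative phosphorylation and ribosomal proteins. Leaving out a replicate was not possible with 1 array a group. No paired analysis was possible because each group has 1 array and the labels carry no replicate numbers.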

Other observations

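Gene groups beyond secretion and interferon held small differences. Over all counted genes 55% were higher and 45% lower. Ribosome biogenesis genes, which build the translation machinery, were higher in 49 of 58 counted genes with a median of 0.13, led by the RNA polymerase I factor Rrn3 at 0.39, while Ubtf was at -0.23. Cholesterol synthesis had 17 of 21 higher with a median of 0.19, led by Lss and Idi1 at 0.38 and 0.37. Immediate-early genes, which respond within minutes to growth signals and to handling, had 28 of 36 lower with a median of -0.12, led by Csrnp1 at -0.47 and Klf4 at -0.40, with Klf6 at 0.21. Of the p53 and apoptosis list 24 of 41 were higher (58.5%, against 55% of all counted genes), with a median of 0.07. Sesn2 (0.67), Sesn1 (0.58) and Zmat3 (0.51) led it, with the caspases Casp9 and Casp4 at -0.31 and -0.30. Single values stood out in lists with medians near 0, such as the EGF receptor ligand Ereg at 0.86, Sprr1a at -0.79 and the chemokine Ccl20 at 0.57.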
